A study of Mus musculus with 6 samples.

Results

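The transcripts of 10 circadian clock genes were followed in bulk RNA-seq of mouse liver. The members were chosen by symbol: Arntl, Clock, Npas2, Cry1 and Nfil3, whose transcripts are known to be high in mouse liver around the end of the night (called the dawn class here), and Dbp, Ciart, Per3, Per1 and Per2, which are known to be high around the end of the day (the dusk class). All 10 were found among the 16603 genes of the count table, and all 10 were among the 12612 genes tested. The labels name 3 Mdr2-knockout and 3 wild-type liver samples. Mdr2, with the gene symbol Abcb4, is the transporter that carries phospholipid into bile, and its loss is used to model chronic bile duct injury. The labels give no strain, age, sex, allele or hour of collection, and no statement that replicates are different animals. The p-values therefore reflect sample-to-sample spread, some of which may be technical.

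The libraries held 17356571 to 18124467 counts in the labelled Mdr2-knockout group and 17100393 to 17609978 counts in the labelled wild-type group. Abcb4 itself averaged 482 ± 42.4 CPM (counts scaled to a common library size with edgeR's TMM factors) in the libraries labelled Mdr2-knockout and 324 ± 48.1 CPM in those labelled wild-type (SD, n = 3 each). It was thus higher in the labelled knockout, by 0.57 on the log2 scale (SE 0.12, edgeR adjusted p = 0.00389). The part of the gene that the allele removes is not given, so this count cannot check the genotype, and the groups are called by their labels. Markers of hepatocytes were present in every library, with a summed level of 88940 to 90614 CPM in labelled Mdr2-knockout and 136363 to 146448 CPM in labelled wild-type libraries, and 10 of the 11 tested were lower and 0 higher. Markers of other cell types were higher: 9 of 9 tested cholangiocyte markers (summed level 354 to 394 CPM against 46.1 to 61.1 CPM in labelled wild-type), 7 of 8 monocyte and macrophage markers (381 to 392 CPM against 114 to 201 CPM in labelled wild-type) and 6 of 8 stellate cell and fibroblast markers (459 to 554 CPM against 177 to 276 CPM in labelled wild-type). With total-count scaling the hepatocyte count was 5 lower and 1 higher, and the other lists stayed at 9, 8 and 6 higher. Clock genes are expressed in all of these cell types. In bulk liver, fewer cells of a type and less RNA per cell cannot be told apart, and the part of cell composition in the clock gene values was not tested.

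In each cell the clock runs as a loop of transcription and repression. The proteins of Arntl (also called BMAL1) and Clock, or the Clock-like protein of Npas2, bind E-box elements as a pair and switch on the Per and Cry genes, whose proteins then block that pair. Further arms run through the ROR and REV-ERB nuclear receptors, which compete at ROR elements, and through the activator DBP and the repressor NFIL3, which compete at D-box elements. In the liver these arms time metabolism, detoxification and bile acid synthesis to the hours of feeding. Because the arms peak in turn, livers taken at different hours can differ in opposite directions in dawn-class and dusk-class transcripts. Members of a class need not peak at the same hour, so the size and direction of such a difference depend on the hours compared.

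The 300 bases around the listed start of a gene, most of them before it, were taken from RefSeq (GRCm38.p6) for 9 of the 10 members; Per2 was not matched. The promoters below are shown because each holds an element of 1 of the 3 arms, and capitals mark it, as read on the printed strand. The E-box was searched as CACGTG, the D-box as TTATGTAA and the core of the ROR element as TAGGTCA or TGGGTCA, each on both strands and with no overlap between motifs. A match is a description of the letters and not a shown binding site.
Ciart, chr3:95882179-95882478, minus strand: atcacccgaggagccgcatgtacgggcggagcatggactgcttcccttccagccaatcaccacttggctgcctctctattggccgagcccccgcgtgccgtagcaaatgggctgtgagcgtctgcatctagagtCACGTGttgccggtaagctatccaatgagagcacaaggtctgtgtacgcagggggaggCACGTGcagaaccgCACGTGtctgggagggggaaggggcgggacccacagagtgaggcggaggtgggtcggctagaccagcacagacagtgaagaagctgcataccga
Cry1, chr10:85185005-85185304, minus strand: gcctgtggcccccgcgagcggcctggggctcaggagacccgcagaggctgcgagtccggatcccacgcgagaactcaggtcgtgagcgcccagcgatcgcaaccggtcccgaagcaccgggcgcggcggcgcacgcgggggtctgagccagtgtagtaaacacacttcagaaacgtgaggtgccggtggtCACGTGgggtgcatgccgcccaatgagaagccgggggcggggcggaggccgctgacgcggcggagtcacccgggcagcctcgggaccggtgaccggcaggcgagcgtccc
Nfil3, chr13:52980990-52981289, minus strand: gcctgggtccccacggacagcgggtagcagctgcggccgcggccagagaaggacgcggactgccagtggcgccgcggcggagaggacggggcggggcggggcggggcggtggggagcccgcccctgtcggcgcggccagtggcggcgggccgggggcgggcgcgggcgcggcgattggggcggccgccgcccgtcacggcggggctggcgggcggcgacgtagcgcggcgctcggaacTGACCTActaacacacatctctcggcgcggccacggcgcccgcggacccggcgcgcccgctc
Arntl, chr7:113207261-113207560, plus strand: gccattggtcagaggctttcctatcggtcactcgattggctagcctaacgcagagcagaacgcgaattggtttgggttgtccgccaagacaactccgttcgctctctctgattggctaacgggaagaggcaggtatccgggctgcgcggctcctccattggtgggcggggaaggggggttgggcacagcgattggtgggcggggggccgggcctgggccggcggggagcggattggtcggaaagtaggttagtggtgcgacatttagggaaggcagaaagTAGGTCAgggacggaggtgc
Per3, chr4:151044616-151044915, minus strand: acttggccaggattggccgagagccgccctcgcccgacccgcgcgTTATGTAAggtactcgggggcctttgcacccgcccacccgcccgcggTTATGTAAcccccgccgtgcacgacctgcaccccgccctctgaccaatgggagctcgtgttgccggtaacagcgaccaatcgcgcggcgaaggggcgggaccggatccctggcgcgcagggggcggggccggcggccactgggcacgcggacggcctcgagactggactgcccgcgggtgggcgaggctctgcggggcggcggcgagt
Ciart held 3 E-boxes, which begin 116, 58 and 44 bases before its start, and Cry1 held 1, 60 bases before. The first of the starts listed for Per1 held 1 E-box 166 bases before it. Nfil3 carried a ROR element core 12 bases before its start, on the opposite strand, and the second of the starts listed for Arntl carried one 30 bases after it. Per3 carried 2 D-boxes, 205 and 158 bases before its start. Among all 32851 promoters of this length in the RefSeq table, 7.15% held the E-box, 0.938% the D-box and 6.45% the ROR element core. None of these letters was found in the windows of Dbp, Clock or Npas2, which says nothing of elements outside them.

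Between the labelled groups, 4 of the 10 clock genes were lower in Mdr2-knockout and 0 were higher, at an adjusted p under 0.05 by edgeR's quasi-likelihood test with Benjamini-Hochberg adjustment over all tested genes. Of the members, the lower ones were Nfil3 and Cry1 of the dawn class and Ciart and Per2 of the dusk class. Among all tested genes 16.3% were lower and 20.9% higher, 37.1% in either direction, so the share of members called in either direction is near the background. In GRCm38 (GENCODE M21) the 4 genes span chr13:52967209-52981073 (Nfil3), chr10:85131700-85185064 (Cry1), chr3:95878503-95882251 (Ciart) and chr1:91415982-91459324 (Per2), each on the minus strand. The groups did not overlap for 3 members, Nfil3, Cry1 and Ciart, all lower in labelled Mdr2-knockout, against 23.7% of all tested genes lower without overlap, 27.6% higher and 51.3% in either direction. The median log2 fold change of the members was -0.49, against 0.01 over all tested genes. At an unadjusted p under 0.05 by edgeR, 5 members were lower and 0 higher, against 5956 of the 12612 tested genes in either direction. DESeq2 and limma-voom each called 5 members lower and 0 higher, against 1928 and 2076 of all 12612 genes lower. With libraries scaled by their total counts, which shifts the median of all genes up by 0.29 on the log2 scale, 2 members were lower and 0 higher. With upper-quartile scaling 3 were lower. Of all 12612 tested genes, these 2 scalings called 330 and 1433 lower. Without labelled Mdr2-knockout replicate 1 the count of lower members was 2, against 1559 of 12731 tested genes. Without labelled wild-type replicate 3 it was 5, against 2006 of 12924. Without both libraries numbered 3, which stood apart in several clock genes as described below, 6 members were lower and 0 higher. Of the 12694 genes tested in that fit, 1696 were lower and 2388 higher.

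**Figure D1:**
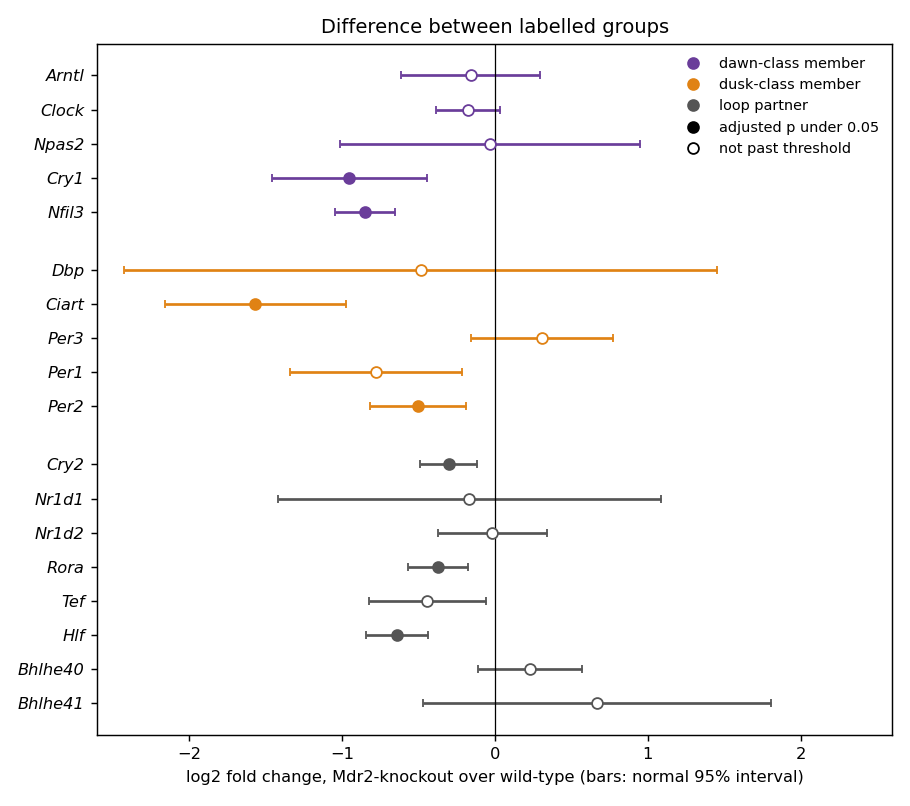
Log2 fold change of labelled Mdr2-knockout over labelled wild-type libraries (x axis) for the 5 dawn-class members, the 5 dusk-class members and 8 other genes of the clock loops (rows), with bars of the normal 95% interval (log2 fold change and SE). Filled points passed an edgeR adjusted p of 0.05; dawn-class and dusk-class members that passed all lie left of 0, with Ciart at -1.57 farthest.

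Nfil3, the D-box repressor, had the smallest p among the members. It stood at 41.5, 48.9 and 38.1 CPM in labelled Mdr2-knockout replicates 1, 2 and 3, against 78.1, 82.8 and 70.3 CPM in labelled wild-type replicates 1, 2 and 3. Every labelled knockout library lay below every labelled wild-type library, and all 6 libraries had at least 733 counts of the gene. The log2 fold change was -0.85 (SE 0.10, edgeR adjusted p = 0.000184), and it passed under each of the 15 alternative settings, with a range of -0.96 to -0.55.

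Ciart, a repressor of the Arntl and Clock pair, was the member with the largest fold change. Its level was 0.942, 2.11 and 1.97 CPM in labelled Mdr2-knockout replicates 1, 2 and 3, against 3.69, 5.30 and 5.93 CPM in labelled wild-type replicates 1, 2 and 3. These rest on 19 to 42 counts in labelled Mdr2-knockout and 58 to 94 counts in labelled wild-type libraries. The groups did not overlap. The log2 fold change was -1.57 (SE 0.30, edgeR adjusted p = 0.00292) and it too passed under each of the 15 alternatives, with a range of -1.78 to -1.27. The annotation places C920021L13Rik antisense to Ciart. It was not among the counted symbols, and without the strand setting reads of the pair cannot be told apart. Nfil3, of the opposite phase class, was thus lower in the same libraries in which Ciart was lower.

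Cry1, which blocks the Arntl and Clock pair and is the latest of the E-box genes to peak, had 12.8, 16.6 and 11.6 CPM in labelled Mdr2-knockout replicates 1, 2 and 3, against 34.1, 27.4 and 17.98 CPM in labelled wild-type replicates 1, 2 and 3. The highest labelled knockout library lay just below the lowest labelled wild-type library, which was the one numbered 3. The log2 fold change was -0.95 (SE 0.26, edgeR adjusted p = 0.0313). The call was lost without labelled Mdr2-knockout replicate 1 (edgeR adjusted p = 0.1003), labelled Mdr2-knockout replicate 3 (0.0973) or labelled wild-type replicate 2 (0.0844), without the low-count filter (0.0598) and with total-count scaling (0.0803).

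The Per genes, which encode the partners of the Cry proteins in repression, gave 1 call of 3. Per2 had 7.79, 7.86 and 11.02 CPM in labelled Mdr2-knockout replicates 1, 2 and 3, against 13.8, 10.9 and 13.1 CPM in labelled wild-type replicates 1, 2 and 3. The labelled knockout library numbered 3 and the labelled wild-type library numbered 2 overlapped slightly. Its log2 ratio was -0.50 (SE 0.16, edgeR adjusted p = 0.0309). The call was lost in 6 of 15 alternatives, among them total-count scaling (-0.21, adjusted p = 0.302), upper-quartile scaling (0.0512) and the fits without labelled Mdr2-knockout replicate 1 (0.102) or 2 (0.101) or without labelled wild-type replicate 1 (0.0877) or 3 (0.0607).

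Per1, which also responds to glucocorticoids, had 28.7, 44.3 and 39.1 CPM in labelled Mdr2-knockout replicates 1, 2 and 3, against 74.1, 75.7 and 42.7 CPM in labelled wild-type replicates 1, 2 and 3. Labelled wild-type replicate 3 lay among the labelled knockout libraries, and the other two lay well above them. The log2 fold change of -0.78 (SE 0.29) did not pass (edgeR adjusted p = 0.0911), but without labelled wild-type replicate 3 it was -1.01 and passed (edgeR adjusted p = 0.00592), and it passed with DESeq2 (0.00112) and limma-voom (0.0331). Per3 was the 1 member with a positive value. It had 3.17, 3.07 and 3.27 CPM in labelled Mdr2-knockout replicates 1, 2 and 3, against 2.42, 1.92 and 3.34 CPM in labelled wild-type replicates 1, 2 and 3, and its log2 fold change of 0.31 (SE 0.24) did not pass (edgeR adjusted p = 0.33). In the annotation Per3 (chr4:151003652-151044665) overlaps Camta1 on the same strand. Camta1 had 1.66 to 2.06 CPM in labelled knockout and 1.26 to 2.30 CPM in labelled wild-type libraries, and since the counting is not described, reads shared by the pair may be lost or split.

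The activators of the loop did not pass. Arntl had 33.3, 34.9 and 23.5 CPM in labelled Mdr2-knockout replicates 1, 2 and 3, against 42.8, 34.0 and 25.7 CPM in labelled wild-type replicates 1, 2 and 3 (log2 fold change -0.16, SE 0.23, edgeR adjusted p = 0.632). Clock, whose transcript is known to cycle weakly, had 71.9, 83.0 and 84.5 CPM in labelled Mdr2-knockout, against 102, 92.3 and 76.5 CPM in labelled wild-type libraries 1, 2 and 3 (-0.18, SE 0.11, edgeR adjusted p = 0.223). The groups overlapped for both genes, and both log2 fold changes turned positive with total-count scaling (0.13 and 0.12, neither past the threshold). Clock passed without labelled wild-type replicate 3 (-0.29, edgeR adjusted p = 0.0293).

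Npas2 and Dbp varied more within each labelled group than between the groups. Npas2 had 6.40, 6.45 and 2.86 CPM in labelled Mdr2-knockout replicates 1, 2 and 3, against 7.76, 6.003 and 2.33 CPM in labelled wild-type replicates 1, 2 and 3. Dbp had 2.68, 1.31 and 6.18 CPM in labelled Mdr2-knockout replicates 1, 2 and 3, against 1.53, 2.17 and 10.5 CPM in labelled wild-type replicates 1, 2 and 3. In both groups the library numbered 3 was the lowest for Npas2 and the highest for Dbp. The fitted log2 differences were -0.03 (SE 0.50, edgeR adjusted p = 0.969) for Npas2 and -0.48 (SE 0.99, edgeR adjusted p = 0.74) for Dbp, with standard errors wider than for the other 8 members. Without labelled wild-type replicate 3 the value of Dbp was 0.86 and did not pass (edgeR adjusted p = 0.416). Dbp (chr7:45705088-45710203) overlaps Sphk2 on the opposite strand, and the strand setting is not given. Sphk2 stood at 47.9 to 64.9 CPM in labelled knockout and 54.3 to 73.1 CPM in labelled wild-type libraries, with labelled knockout replicate 3 the lowest of its group and labelled wild-type replicate 3 the highest of its own.

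**Figure D2:**
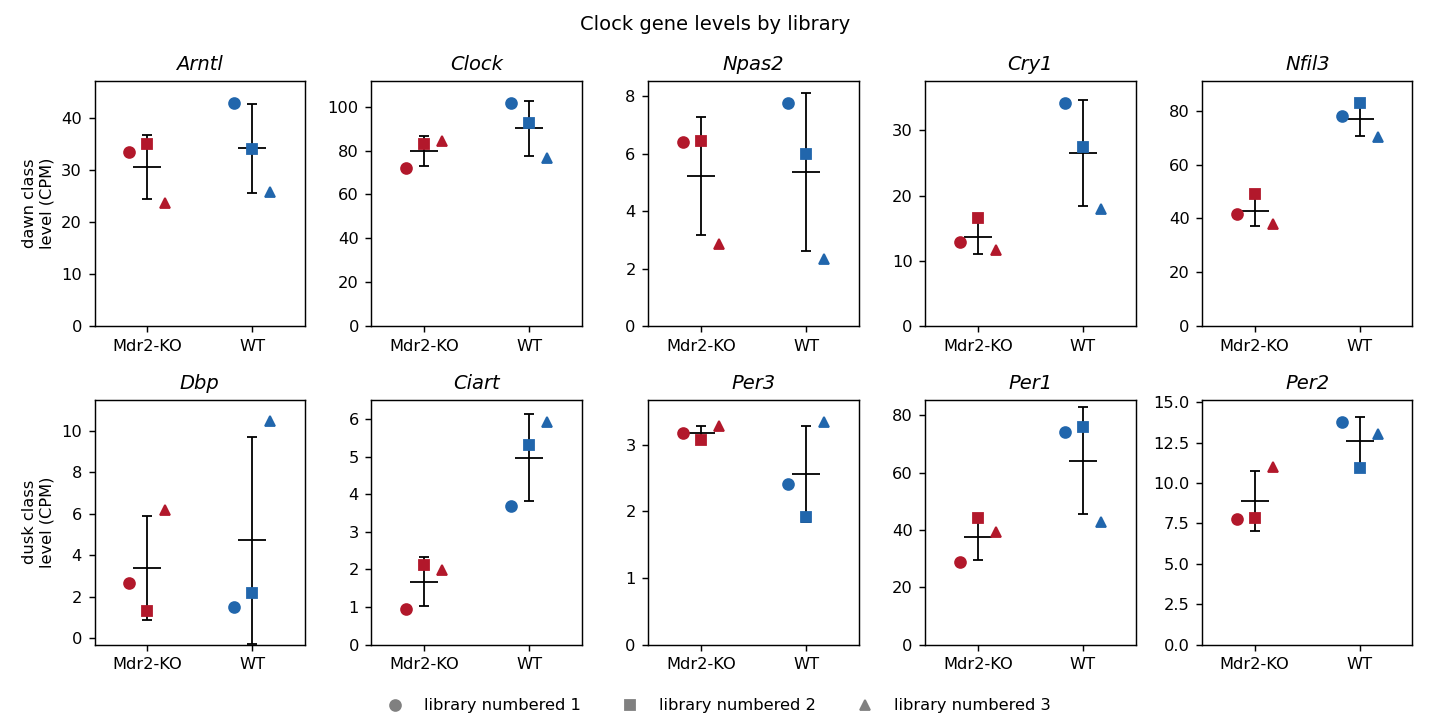
Level in CPM (y axis, from 0 or just below it where an SD bar reaches lower) of each clock gene in the 3 labelled Mdr2-knockout and the 3 labelled wild-type libraries; marker shapes give the library number, and the dash and bar give mean and SD. Nfil3, Cry1 and Ciart show no overlap between the groups, while Npas2 is lowest and Dbp highest in the library numbered 3 of either group.

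The authors' FPKM scale divides by a gene length that is not given, so the order of genes on it depends on those lengths. In labelled Mdr2-knockout replicate 1, Arntl had 33.3 CPM and 1.92 FPKM, while Cry1 had 12.8 CPM and 3.59 FPKM. The place of Arntl below Cry1 thus rests on a longer length used for Arntl, which could not be checked. On this scale Nfil3 (10.6 ± 1.31 FPKM) and Clock (8.88 ± 0.735 FPKM) were the highest members in the labelled Mdr2-knockout libraries (SD, n = 3). These 2 did not overlap across libraries there. Per1 (4.87 ± 1.00 FPKM) and Cry1 (3.80 ± 0.702 FPKM) followed and overlapped each other. Arntl, Per2, Dbp and Npas2 lay between 1.36 and 1.76 FPKM on average, within their spread of each other. Ciart (0.781 ± 0.295 FPKM) and Per3 (0.516 ± 0.0191 FPKM) came last and overlapped. In the labelled wild-type libraries Nfil3 averaged 15.6 ± 1.24 FPKM, Clock 8.20 ± 1.23 FPKM, Per1 6.84 ± 2.00 FPKM and Cry1 6.03 ± 1.92 FPKM (SD, n = 3), of which Clock, Per1 and Cry1 overlapped. Ciart, Per2, Dbp, Arntl and Npas2 averaged 1.14 to 1.89 FPKM and Per3 0.340 ± 0.0968 FPKM. On this scale Ciart was thus among the middle members in the labelled wild-type and near the bottom in the labelled knockout libraries.

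Whether genes of opposite phase moved apart between the groups was read within each library, where the scaling of libraries hardly enters. The mean log2 CPM of the 5 dawn-class genes minus that of the 5 dusk-class genes was 2.38, 2.42 and 1.42 in labelled Mdr2-knockout replicates 1, 2 and 3, against 2.49, 2.21 and 1.13 in replicates 1, 2 and 3 of labelled wild-type. The groups overlapped almost wholly. The means were 2.07 ± 0.57 in labelled Mdr2-knockout and 1.94 ± 0.72 in labelled wild-type (SD, n = 3 each), and their difference of 0.13 was smaller than the spread of 0.65 within a group. Both class means were lower in labelled Mdr2-knockout, at 4.55 ± 0.26 against 4.96 ± 0.40 in labelled wild-type for the dawn class, and at 2.48 ± 0.33 against 3.02 ± 0.32 in labelled wild-type for the dusk class (mean log2 CPM). No p is given for these scores, because the members were chosen with results of these data known. With the median over each class in place of the mean the difference was 0.43. The spread of that median-based score within a group was not computed. The difference of the mean-based score was 0.05 without both libraries numbered 3. Leaving out 1 library at a time put this mean-based difference at -0.28 to 0.46. It was lowest without labelled wild-type replicate 3 and highest without labelled Mdr2-knockout replicate 3.

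Log2 ratios of a single dawn-class gene to a single dusk-class gene also overlapped between the groups. The log2 ratio of Arntl to Dbp was 3.58, 4.62 and 1.91 in labelled Mdr2-knockout replicates 1, 2 and 3, against 4.71, 3.90 and 1.28 in replicates 1, 2 and 3 of labelled wild-type. The log2 ratio of Nfil3 to Dbp, which compete for the same element, was 3.90, 5.11 and 2.601 in labelled Mdr2-knockout libraries, against 5.58, 5.18 and 2.73 in labelled wild-type libraries. That of Npas2 to Per3 was 0.99, 1.04 and -0.19 in labelled Mdr2-knockout, against 1.64, 1.59 and -0.50 in labelled wild-type libraries. That of Cry1 to Per2, partners in repression, was 0.71, 1.07 and 0.07 in labelled Mdr2-knockout, against 1.30, 1.32 and 0.46 in labelled wild-type libraries. Cry1 and Per2 are both switched on by the Arntl and Clock pair, so they are not strictly opposite in phase. In each of these ratios the library numbered 3 was the lowest of its group, in labelled Mdr2-knockout and labelled wild-type alike. The ratios to Dbp share that gene, and all of these genes also enter the class difference, so these values are not separate observations.

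**Figure D3:**
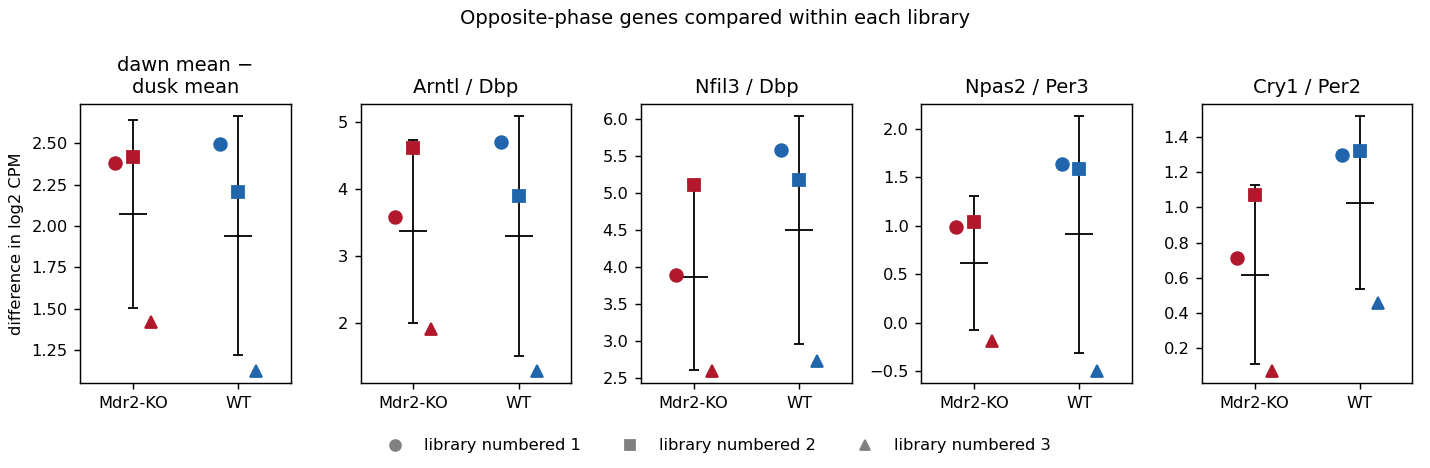
Dawn-class minus dusk-class mean log2 CPM and 4 log2 ratios of a dawn-class to a dusk-class gene (y axes), with mean and SD. Each of the 3 labelled Mdr2-knockout and 3 labelled wild-type libraries is shown, and marker shapes give the library number. The groups overlap in all panels, and the library numbered 3 is the lowest of its group in each, at 1.42 and 1.13 for the class difference.

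Within each group, most dawn-class genes lay lower and most dusk-class genes higher in the library numbered 3. Each library's log2 CPM was set against the mean of its own group. In labelled Mdr2-knockout replicate 3, 4 of the 5 dawn-class genes lay below the group mean and 5 of the 5 dusk-class genes above it. In labelled wild-type replicate 3, 5 of the 5 dawn-class genes lay below and 4 of the 5 dusk-class genes above. In labelled Mdr2-knockout replicate 2, and likewise in replicates 1 and 2 of labelled wild-type, 5 of the 5 dawn-class genes lay above and 3 of the 5 dusk-class genes below. Labelled Mdr2-knockout replicate 1 was mixed, with 3 of the 5 dawn-class genes and 4 of the 5 dusk-class genes below. The deviations of a group add up to 0, so a library far on one side sets the others on the opposite side, and the counts for replicates 1 and 2 add nothing to those for replicate 3. Over all tested genes, the median deviation of each library lay between -0.00076 and 0.0038, so the scaling left no library high or low as a whole.

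Dbp lay 1.11 above its group mean in labelled Mdr2-knockout replicate 3 and 1.63 above in labelled wild-type replicate 3, on the log2 scale. Npas2 lay at -0.76 in the labelled Mdr2-knockout and -1.002 in the labelled wild-type library. In the same order of libraries, Arntl lay at -0.36 and -0.38, Cry1 at -0.22 and -0.51, Nfil3 at -0.16 and -0.13, and Ciart at 0.30 and 0.28. Per2 lay at 0.33 and 0.06 and Per3 at 0.04 and 0.41, while Clock (0.09 and -0.23) and Per1 (0.09 and -0.54) differed in sign between the libraries. Dbp and Npas2 were the 2 members at least 1.5-fold from their group means, in the same direction, in both libraries numbered 3, against 0.206% of all tested genes. For the libraries numbered 1 and 2, 0 members met this rule, against 0.262% and 0.167% of all tested genes. Among 11812 genes with a mean of at least 1 CPM, ranked by the smaller of the 2 deviations in the libraries numbered 3, Dbp came first, Npas2 came at rank 7 and Arntl at rank 85. This ranking was chosen after the values were seen, and it is a description of these libraries.

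**Figure D4:**
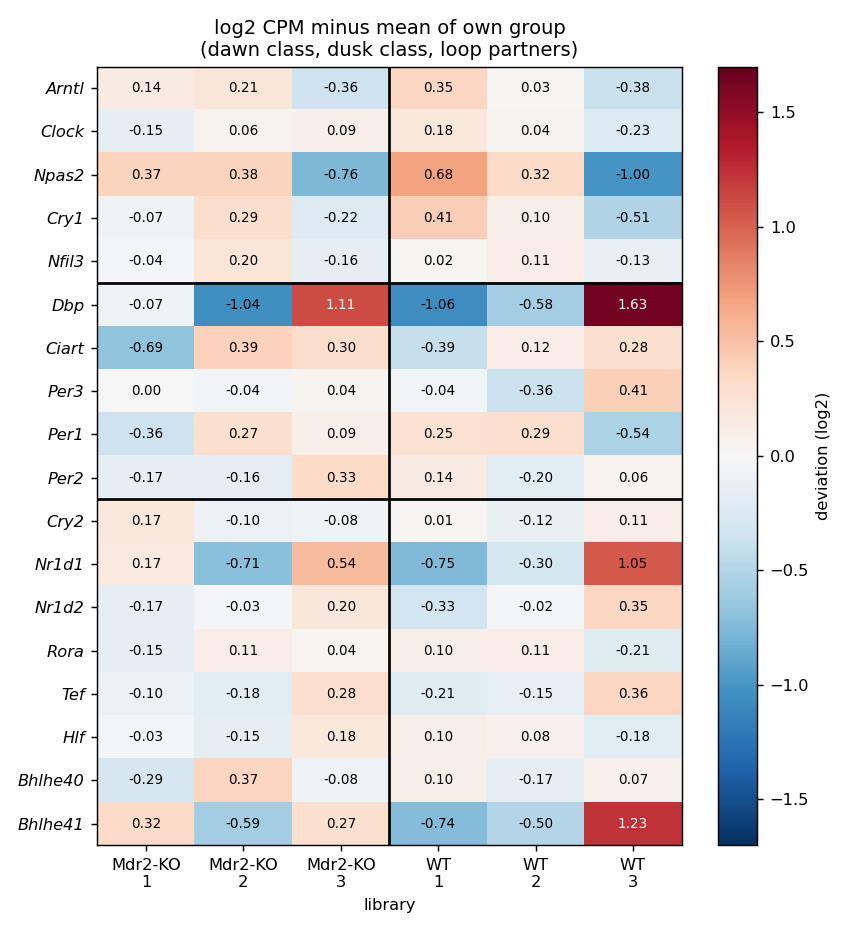
Log2 CPM minus the mean of the library's own group (colour and printed value) for the dawn class, the dusk class and 8 other clock loop genes (rows) in the labelled Mdr2-knockout and labelled wild-type libraries (columns). In the column numbered 3 of either group most dawn-class rows are blue, down to -1.002 for Npas2, and Dbp is deep red, up to 1.63.

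The other genes of the clock loops gave 3 lower and 0 higher of 9 tested, against 16.3% lower and 20.9% higher among all tested genes. The count was also 3 lower and 0 higher at an unadjusted p under 0.05 by edgeR. It was 4 and 0 with DESeq2, and 3 and 0 with limma-voom. With total-count scaling 1 was lower and 1, Bhlhe40, was higher (0.52, edgeR adjusted p = 0.0415). Hlf, a D-box activator related to Dbp, was lower at 34.0 ± 4.01 CPM in labelled Mdr2-knockout and 53.1 ± 5.48 CPM in labelled wild-type libraries (SD, n = 3 each; log2 fold change -0.64, SE 0.10, edgeR adjusted p = 0.0011). It passed in each alternative. Rora, an activator at ROR elements, was lower at 85.7 ± 7.91 CPM in labelled Mdr2-knockout and 111 ± 13.2 CPM in labelled wild-type (log2 fold change -0.37, SE 0.10, edgeR adjusted p = 0.016). Cry2, the paralog of Cry1, was lower at 30.2 ± 3.28 CPM in labelled Mdr2-knockout and 37.3 ± 2.96 CPM in labelled wild-type (-0.30, SE 0.10, edgeR adjusted p = 0.0303). Both lost their calls with total-count scaling (edgeR adjusted p = 0.543 for Rora and 0.944 for Cry2), and Cry2 also with upper-quartile scaling (0.0794). Rora also lost it without labelled Mdr2-knockout replicate 1 (0.0592) or labelled wild-type replicate 1 (0.0543) or 2 (0.0639). Cry2 lost it without labelled Mdr2-knockout replicate 2 (0.0961) or 3 (0.0892) or labelled wild-type replicate 1 (0.0617) or 3 (0.0782), and without both libraries numbered 3 (0.196).

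Nr1d1 and Nr1d2, which encode the REV-ERB repressors that silence Arntl, Npas2 and Nfil3, did not pass. Nr1d1 had 68.3, 37.1 and 88.1 CPM in labelled Mdr2-knockout replicates 1, 2 and 3, against 37.1, 50.8 and 129 CPM in labelled wild-type replicates 1, 2 and 3 (log2 fold change -0.17, SE 0.64, edgeR adjusted p = 0.866). Nr1d2 had 49.0, 54.3 and 63.3 CPM in labelled Mdr2-knockout, against 44.0, 54.3 and 70.3 CPM in labelled wild-type libraries (-0.02, SE 0.18, edgeR adjusted p = 0.952). Both were highest in the library numbered 3 of either group. The D-box activator Tef was also highest there, with 58.6, 55.4 and 76.4 CPM in labelled Mdr2-knockout, against 73.2, 76.7 and 109 CPM in labelled wild-type libraries (-0.44, SE 0.19, edgeR adjusted p = 0.127). Tef passed with the replicate number as a block (edgeR adjusted p = 0.00217), without both libraries numbered 3 (0.00797), without labelled Mdr2-knockout replicate 3 (0.0484) and with DESeq2 (0.0265). The E-box repressor genes Bhlhe40 (0.23, edgeR adjusted p = 0.341) and Bhlhe41 (0.67, edgeR adjusted p = 0.396) did not pass; Bhlhe41 passed without labelled wild-type replicate 3 (1.78, edgeR adjusted p = 0.0318).

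Regulators of the clock proteins, such as kinases and ubiquitin ligases, had 1 higher and 3 lower of 20 tested. Among all tested genes 20.9% were higher and 16.3% lower, 37.1% in either direction, so the share of regulators called is below the background. Csnk1e, a kinase of the PER proteins, was higher (0.71, SE 0.20, edgeR adjusted p = 0.0196), and Ncor1, the co-repressor that REV-ERB recruits (-0.40), Cul4a (-0.26) and Wdr5 (-0.22) were lower. Cul4a and Wdr5 lost their calls without any 1 library other than labelled wild-type replicate 3 (edgeR adjusted p = 0.0501 to 0.111 and 0.0515 to 0.101). Both also lost them with upper-quartile scaling (edgeR adjusted p = 0.0780 and 0.0957). Wdr5 lost its call with DESeq2 (adjusted p = 0.0774) and with the replicate block (edgeR adjusted p = 0.0538) as well. With total-count scaling 9 of the list were higher and 0 lower, and Ncor1 did not pass (edgeR adjusted p = 0.378). That scaling called 5943 of all 12612 tested genes higher and 330 lower. Csnk1e lost its call without labelled Mdr2-knockout replicate 3 (edgeR adjusted p = 0.0659), labelled wild-type replicate 1 (0.0654) or 3 (0.0561), and without both libraries numbered 3 (0.126). Genes through which the clock acts on liver metabolism had 2 higher and 1 lower of 16 tested, also a share below the background, and 7 and 1 with total counts. Wee1, a cell-cycle kinase and E-box gene, was higher at 4.24 ± 1.94 CPM in labelled Mdr2-knockout and 1.21 ± 0.0681 CPM in labelled wild-type libraries (SD, n = 3 each; 1.81, SE 0.35, edgeR adjusted p = 0.00286). Nampt, of NAD synthesis, was also higher (0.25, edgeR adjusted p = 0.0312). Its call was lost with DESeq2 (adjusted p = 0.0694). The same held without any 1 library other than labelled Mdr2-knockout replicate 3 (edgeR adjusted p = 0.0526 to 0.125). The vasopressin receptor gene Avpr1a was lower (-1.23, SE 0.20, edgeR adjusted p = 0.00549). Cyp7a1, the rate-limiting enzyme of bile acid synthesis and a target of DBP, did not pass at 167 ± 95.0 CPM in labelled Mdr2-knockout and 57.0 ± 17.1 CPM in labelled wild-type (log2 fold change 1.55, edgeR adjusted p = 0.0809). Its groups did not overlap, at 276, 126 and 99.98 CPM in labelled Mdr2-knockout against 39.5, 73.6 and 58.0 CPM in labelled wild-type libraries. Of all tested genes, 27.6% were higher without overlap. Cyp7a1 passed with DESeq2 (0.015), limma-voom (0.0133) and total counts (0.042).

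Genes that respond to signals known to set the liver clock were counted beside these. The background for each list is the 20.9% of all tested genes higher and the 16.3% lower by edgeR. Of 9 glucocorticoid-responsive genes, Per1 among them, 0 were higher and 0 lower by edgeR (0 higher and 1 lower at an unadjusted p under 0.05; 2 lower with DESeq2 and 3 lower with limma-voom), and the median log2 fold change was -0.87; Tat (-0.62), Tsc22d3 (-1.05) and Dusp1 (-0.91) had edgeR adjusted p-values of 0.107, 0.129 and 0.198. Tat passed without labelled Mdr2-knockout replicate 2 (0.00814) and with limma-voom (0.0434). Tsc22d3 passed without labelled wild-type replicate 3 (0.0274), with DESeq2 (0.0403) and with limma-voom (0.0390). Of 11 tested feeding and fasting genes, 1 was higher and 3 were lower, among them Fasn, a fatty acid synthesis enzyme (0.69, higher), and Pck1, an enzyme of glucose production (-0.81, lower). Pck1 lost its call without labelled wild-type replicate 1 (edgeR adjusted p = 0.0664) or 2 (0.0725), without both libraries numbered 3 (0.0780), without the low-count filter (0.0586) and with total-count scaling (0.0838). With total counts 1 gene of the list was higher and 1 lower. Of 8 temperature-responsive genes, Rbm3 was higher (0.68) and Dnajb1 (-0.46) and Hspa8 (-0.45) were lower, with Hsph1 (-0.60, edgeR adjusted p = 0.111) not past the threshold. Hsph1 passed without labelled Mdr2-knockout replicate 3 (0.0192), with DESeq2 (0.00657) and with limma-voom (0.0355). Total-count scaling gave 2 higher and 0 lower. The part of feeding, glucocorticoids or temperature in the clock gene values was not tested. The labels record no hour of collection, so collection time and genotype cannot be told apart in the differences between the groups, and the part of collection time in the spread within them was not tested.

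By the distance between centred log2 CPM profiles over the 6 libraries, the genes most like Dbp among 11600 compared were Phlda1 (root-mean-square difference 0.28), the liver transcription factor gene Onecut1 (0.36) and Nr1d1 (0.42). Phlda1 had 30.8, 14.7 and 63.7 CPM in labelled Mdr2-knockout replicates 1, 2 and 3, against 21.6, 20.6 and 171 CPM in labelled wild-type replicates 1, 2 and 3, and was highest in the same libraries as Dbp. The genes most like Arntl were Ogfod3 (0.046), Gpn3 (0.12) and Rasgrp3 (0.13), each lowest in the library numbered 3 of either group. Ogfod3 had 6.40, 6.75 and 4.37 CPM in labelled Mdr2-knockout, against 8.07, 6.90 and 5.17 CPM in labelled wild-type libraries. All of these profiles share the same 6 libraries.

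**Figure D5:**
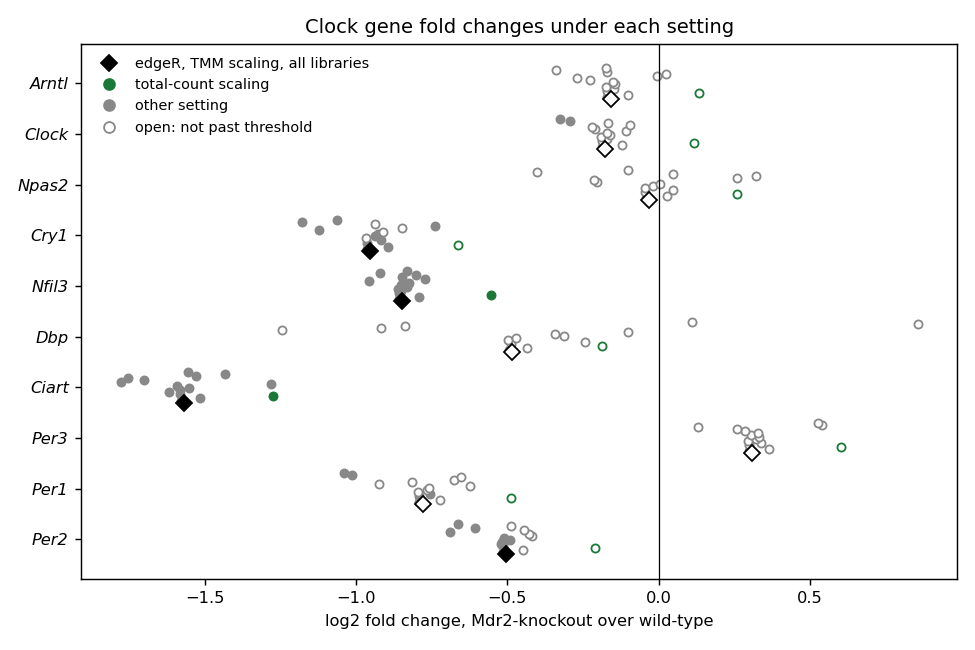
Log2 fold change of labelled Mdr2-knockout over labelled wild-type libraries (x axis) of each clock gene under the edgeR fit with TMM scaling (diamond) and 15 alternatives (circles; green, total-count scaling). Filled symbols passed an adjusted p of 0.05: Nfil3 and Ciart are filled throughout, from -0.96 to -0.55 and from -1.78 to -1.27.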

How the data were processed

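Per the labels, liver RNA of 3 Mdr2-knockout and 3 wild-type samples was sequenced. The authors deposited raw read counts per gene symbol and a table of FPKM values. Per the submitters' processing notes, Trimmomatic, HISAT2, Bowtie2, HTSeq, StringTie, Cufflinks, SAMtools and DESeq were used with mm10; roles, versions, annotation and strand setting: not given in the sources used here. Within a gene, the deposited FPKM followed the counts up to 1 factor per library, so they are no separate measurement. Columns lettered M were read as Mdr2-knockout and those lettered N as wild-type by elimination; every direction rests on that reading. Of the columns, 0 were left without a sample.

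Counts were tested with edgeR 4.0.16 (R 4.3.3): filterByExpr (minimum count 10, minimum total 15), TMM factors, a robust quasi-likelihood fit on group, and Benjamini-Hochberg adjustment over 12612 genes at 0.05. Log2 CPM used a prior count of 2. SE is the log2 fold change over the root of F. A count of 3 in a library equals 0.149 to 0.192 CPM. The fit was also run on simulated counts, and no result given here rests on that run. Alternatives were DESeq2 1.42.0, limma-voom (limma 3.58.1), other scalings and filters, a replicate block, and each library left out. Promoters came from RefSeq and gene overlaps from GENCODE, both GRCm38.

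The members and gene lists were chosen with earlier results of these data known. Named genes were the 10 members, Abcb4, the measured loop partners, the 4 genes of smallest p in the other lists (cell type lists are given as counts), and the 3 genes most like Dbp and Arntl; Camta1 and Sphk2 were added as overlapping genes. Some genes of the loop partner and feeding lists are counted but not reported here by name. The split into libraries numbered 3 and others was noticed in the data.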

Additional observations from a re-analysis of the deposited data

How the results depend on the processing

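Total-count scaling gave 5943 genes higher and 330 lower; 94.7% of its calls were higher, against 56.2% with TMM and 67.2% with upper-quartile scaling. It gave 2 clock members lower, 1 loop partner higher and 1 lower, 9 clock regulators higher and 0 lower, and 7 output genes higher. Upper-quartile scaling gave 2 regulators higher and 1 lower, and limma-voom gave 2 output genes lower. Without both libraries numbered 3, an alternative chosen after seeing the data, 0 regulators were higher and 2 output genes lower. Leaving out 1 library at a time gave 2092 to 2603 genes higher and 1449 to 2006 lower, 2 to 5 members lower, 0 to 1 loop partners higher and 1 to 3 lower, 0 to 1 regulators higher and 1 to 3 lower, and 1 to 2 output genes in either direction.

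None of the values that turned sign passed. Arntl was at 0.13 with total counts and, without 1 library at a time, between -0.34 and 0.025, and Clock at 0.12 with total counts. Npas2 was at 0.028 with upper-quartile scaling, 0.26 with total counts, 0.048 with limma-voom, 0.0051 with the replicate block, and between -0.40 and 0.32 without 1 library. Dbp was between -1.24 (without labelled Mdr2-knockout replicate 3) and 0.86 (without labelled wild-type replicate 3), and at 0.11 without both libraries numbered 3. The causes were not tested.

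As log2 CPM minus the mean of their own group, same-numbered libraries correlated at 0.0842, 0.0449 and -0.0759 over all tested genes. Without that centring their log2 CPM correlated at 0.953, 0.958 and 0.959. By the deviations, replicates 2 and 3 of either group did not correlate best with their own number, so the numbers were not read as pairs. With the number as a block, 4 members, 5 loop partners and 2 output genes were lower, and 0 genes passed for the number itself (689 at an unadjusted p under 0.05, edgeR). Dbp, Ciart and Per3 had as few as 24, 19 and 30 counts in a library, which limits their precision.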
